A study of Mus musculus with 14 samples.

Results

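The genes described here were 10 transcripts that hippocampal interneurons use to make diffusible signals. They comprise 9 precursors of neuropeptides (Sst, Vip, Npy, Cck, Cort, Tac1, Penk, Pdyn and Crh) and Nos1, the neuronal nitric oxide synthase. They were chosen by name and not by a cutoff on a measured value, but with earlier results of these data known. They are 10 of the 39017 genes in the count table. All 10 passed the filter on low counts, which kept 21298 genes for testing. The study asked how parvalbumin (PV) neurons of the hippocampus differ after chronic social defeat stress (CSDS) between mice that avoid or do not avoid a new aggressor. It used translating ribosome affinity purification (TRAP), in which a ribosomal protein tagged with EGFP is pulled down together with the mRNA on the ribosome. Each library was made from the RNA of both hippocampi of 1 mouse.

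All mice carried a Cre-dependent EGFP-L10a allele and PV-Cre, so that the tag was made in any cell with PV-Cre activity. They were males on a C57BL/6 background, and behavioral experiments began at 8 to 12 weeks of age. The non-defeated group (n = 4) was housed in pairs across a divider and never met an aggressor. The resilient group (n = 4) and the susceptible group (n = 3) were both defeated by CD-1 aggressors for 10 days. They were told apart by their social interaction ratio, which was over 1 in resilient and under 1 in susceptible mice. The input group (n = 3) was total RNA of non-defeated homogenates taken before TRAP. Samples are named here by their group and the number in their sample name, and values of a group are listed in the order of these numbers. Nothing in the labels ties these numbers to a batch or a day.

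Neuropeptides are cut from larger precursors inside dense-core vesicles and act on G protein-coupled receptors, often at some distance from the site of release. In the hippocampus their precursors mark classes of inhibitory neurons. Sst and Npy are known from dendrite-targeting cells, Vip from cells that inhibit other interneurons, and Cck from a class of basket cells distinct from the PV basket cells. Cort and Tac1 are known in part from PV cells. Granule cells also make Penk and Pdyn, and many pyramidal cells make Cck, so that these precursors are not limited to interneurons. Neuronal nitric oxide synthase, the product of Nos1, makes nitric oxide, a gas that crosses membranes and activates guanylate cyclase.

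Library totals were between 72098582 and 94726962 counts in TRAP and between 64110214 and 80063224 in input. Pvalb, the gene that encodes PV, was higher in non-defeated TRAP than in input by a log2 fold change of 5.85 (SE 0.17, adjusted p = 7.89e-11 in edgeR's quasi-likelihood test). All 6 markers of PV interneurons and all 5 markers of GABAergic neurons were higher in TRAP, and all 8 markers of excitatory neurons were lower. The summed level of 8 markers of the thalamus, a neighbor of the hippocampus, was between 53.5 and 92.1 CPM (counts scaled to library size) in 7 TRAP libraries. It was 171 CPM in susceptible 10, 331 in non-defeated 11, 440 in non-defeated 9 and 792 in resilient 7, and was 399 in input 14 against 80.5 and 102 in the other inputs. A short-minus-long index was taken from each gene's log2 CPM minus its mean over the 11 TRAP libraries. It is the median of these differences over genes shorter than 1000 bases minus the median over genes longer than 5000 bases. The index thus compares a library with the TRAP mean, and not the levels of short genes with those of long genes. It was between -0.84 and -0.74 in input and between -0.30 and 0.31 in TRAP.

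Of the 10 genes, 5 were higher in non-defeated TRAP than in input and 4 were lower at an adjusted p under 0.05, with Nos1 alone on neither side. Over all 21298 genes, 27.4% were higher and 27.6% were lower by the same test, so that most of the transcriptome differed between TRAP and input. The median log2 fold change was 0.85 over the 10 genes and -0.04 over all genes tested. Cort and Tac1 were the most enriched, and Vip the most depleted. All values below are CPM with TMM normalization, and the tests are edgeR's quasi-likelihood tests with Benjamini-Hochberg adjustment over all genes. In bulk RNA, fewer cells of a type cannot be told apart from less RNA per cell.

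**Figure D1:**
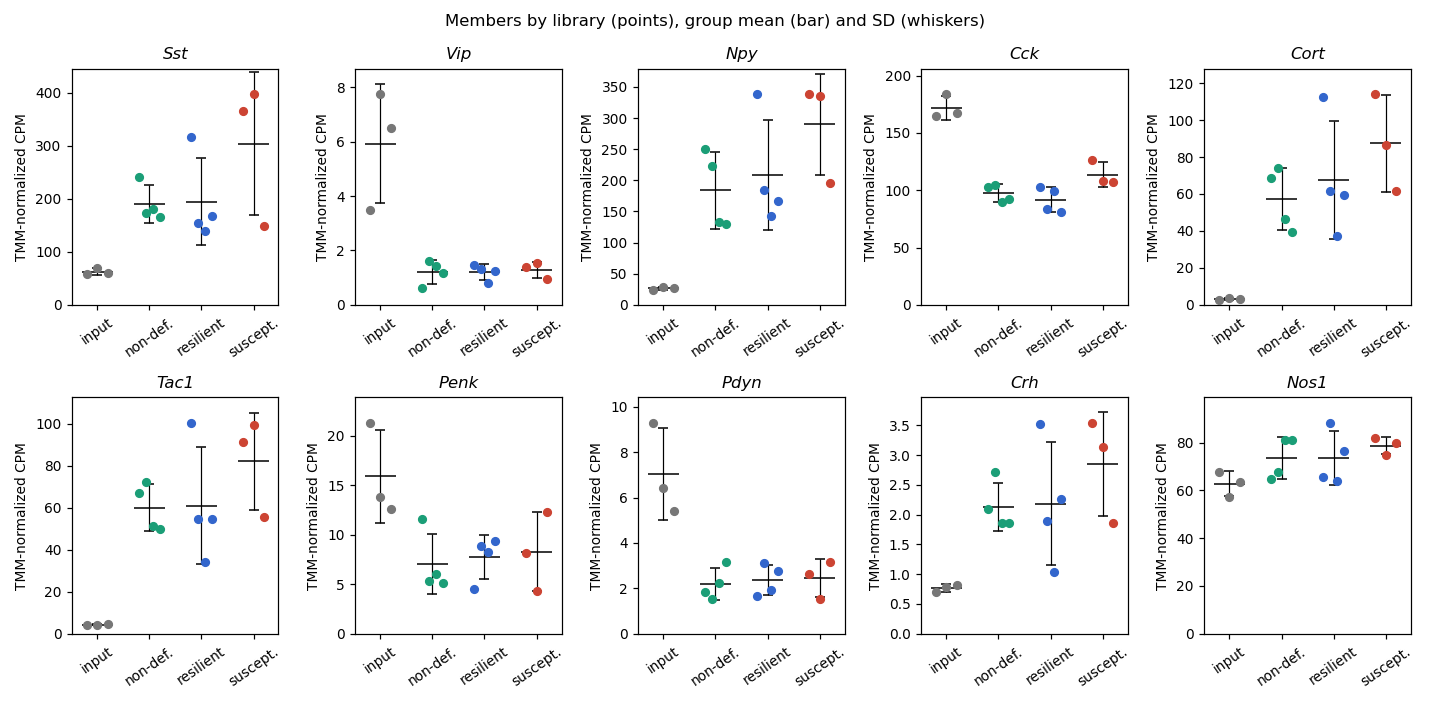
TMM-normalized CPM (linear axes from 0) of each gene in the 3 input, 4 non-defeated, 4 resilient and 3 susceptible libraries, with group means as bars and SD as whiskers. The TRAP libraries lie above the input libraries for Sst, Npy, Cort, Tac1 and Crh and below them for Vip, Cck, Penk and Pdyn, and the 4 resilient and 3 susceptible libraries spread widely for Sst, from 138 to 398 CPM.

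Positions are those of release M21 of GENCODE on mm10, and each level is that of all exons of the gene. Cort (ENSMUSG00000028971, chr4:149125034-149126763, minus strand) encodes cortistatin, a peptide close to somatostatin that binds the same receptors. The input libraries held 2.36, 3.81 and 3.27 CPM, and the non-defeated TRAP libraries 68.5, 74.1, 46.7 and 39.5 CPM. Every non-defeated TRAP library was thus more than 10-fold above every input library. The log2 fold change was 4.19 (SE 0.39, adjusted p = 7.17e-07), an 18.2-fold difference, and 0.216% of all genes tested had a higher one. Tac1 (ENSMUSG00000061762, chr6:7554879-7565834, plus strand), the precursor of substance P and neurokinin A, stood at 4.18, 4.13 and 4.78 CPM in input and at 67.0, 72.2, 51.2 and 50.0 CPM in TRAP. Its log2 fold change was 3.78 (SE 0.33, adjusted p = 4.18e-07), or 13.8-fold, with 0.343% of genes higher.

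Npy (ENSMUSG00000029819, chr6:49822710-49829507, plus strand), the precursor of neuropeptide Y, was found at 23.7, 28.7 and 27.5 CPM in input and at 251, 223, 133 and 130 CPM in non-defeated TRAP. This was a log2 fold change of 2.79 (SE 0.33, adjusted p = 7.10e-06), or 6.92-fold. Sst (ENSMUSG00000004366, chr16:23889573-23890958, minus strand), the precursor of somatostatin, had 57.3, 69.3 and 60.8 CPM in input and 242, 174, 180 and 165 CPM in TRAP, with a fold of 3.05. Crh (ENSMUSG00000049796, chr3:19693401-19695396, minus strand), the precursor of corticotropin-releasing hormone, was the least abundant of the enriched genes. It had 0.704, 0.779 and 0.826 CPM in input, from 55 to 74 counts a library, and 2.09, 2.72, 1.86 and 1.87 CPM in TRAP. Its log2 fold change was 1.47 (SE 0.35, adjusted p = 2.43e-03). For all 5 enriched genes the lowest non-defeated TRAP library was above the highest input library, as it was for 29.5% of all genes tested. The exact 2-sided permutation test gave p = 0.0286 for each, the smallest that 4 against 3 libraries allow.

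Vip (ENSMUSG00000019772, chr10:5639218-5647617, plus strand), the precursor of vasoactive intestinal peptide, was the most depleted. It had 3.49, 7.76 and 6.51 CPM in input and 0.627, 1.62, 1.41 and 1.18 CPM in TRAP, a log2 fold change of -2.29 (SE 0.33, adjusted p = 4.09e-05). Pdyn (ENSMUSG00000027400, chr2:129686565-129699844, minus strand), which encodes the precursor of dynorphins, had 9.30, 6.44 and 5.40 CPM in input and 1.83, 1.55, 2.24 and 3.16 CPM in TRAP. The log2 fold change of Pdyn was -1.69 (SE 0.31, adjusted p = 3.12e-04). Neither gene overlapped between the groups, and 32.5% of all genes tested were separated in this direction.

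Cck (ENSMUSG00000032532, chr9:121489824-121495694, minus strand), the precursor of cholecystokinin, was lowered by less but with the smallest error of the 10 genes. It had 164, 184 and 167 CPM in input and 103, 105, 90.0 and 92.5 CPM in TRAP, a log2 fold change of -0.82 (SE 0.10, adjusted p = 1.06e-05). It therefore stayed among the abundant peptide transcripts of the TRAP RNA. Penk (ENSMUSG00000045573, chr4:4133531-4138819, minus strand), the precursor of enkephalins, had 21.3, 13.8 and 12.6 CPM in input and 11.6, 5.35, 6.04 and 5.16 CPM in TRAP. Its log2 fold change was -1.18 (SE 0.36, adjusted p = 0.0120). The Penk call rested on input 12, the highest library, since without it the log2 fold change was -0.91 and the adjusted p 0.0708. Without the libraries above 150 CPM of thalamus markers Penk had -1.04 and an adjusted p of 0.0827. An exon of Penk shares 233 bases with the opposite-strand transcript A830012C17Rik, and the library kit did not mark strand, so that reads in this stretch cannot be assigned to either gene.

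Nos1 (ENSMUSG00000029361, chr5:117781032-117958840, plus strand) differed least. It had 67.6, 57.3 and 63.7 CPM in input and 64.7, 67.5, 81.0 and 81.2 CPM in non-defeated TRAP, and the groups overlapped. Its log2 fold change was 0.23 (SE 0.12, 95% interval -0.03 to 0.48, adjusted p = 0.122). Nos1 has by far the longest exon sequence of the 10 genes, 11151 bases against 566 to 3402 bases in the others. The index of short against long genes differed between TRAP and input, and an offset for gene length and GC content moved the log2 fold change of Nos1 to 0.51 (adjusted p = 5.26e-04). An offset for GC content alone gave 0.28 (adjusted p = 0.0490). Scaling by total counts gave 0.04 (adjusted p = 0.792). Nos1 overlaps the antisense gene Gm26995, with 268 bases of shared exon.

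**Figure D2:**
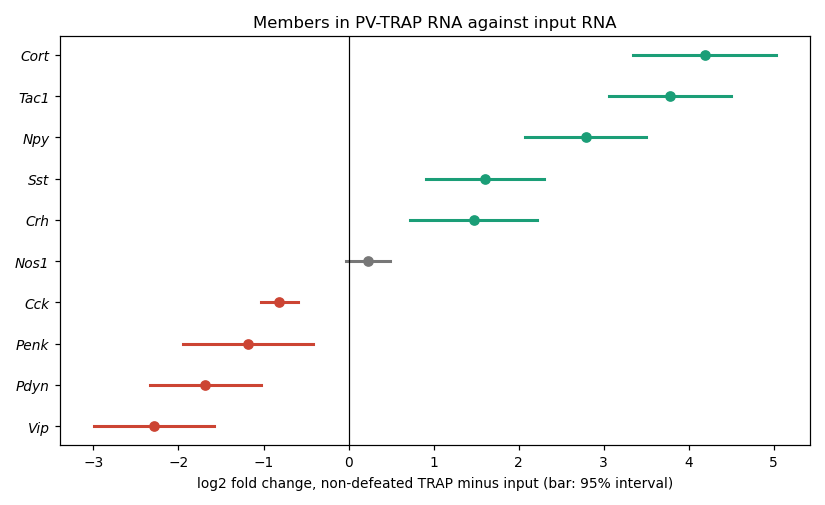
Log2 fold change of each gene, non-defeated TRAP minus input (point), with its 95% interval (bar), in green for higher, red for lower and gray for no call. The 5 higher genes run from 1.47 for Crh to 4.19 for Cort, the 4 lower genes from -0.82 for Cck to -2.29 for Vip, and the interval of Nos1 spans 0.

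Compared per kilobase of exon (RPKM), the order of the 10 genes changed from input to TRAP. In input Cck led with 132 ± 8.13 RPKM (SD, n = 3), followed by Sst with 86.7 ± 8.51 and Npy with 47.0 ± 4.61. Penk (9.75 ± 2.89), Nos1 (5.64 ± 0.465) and Cort (4.65 ± 1.08) came next, and the SD ranges of Nos1 and Cort overlapped. Pdyn (2.44 ± 0.699), Vip (1.74 ± 0.644) and Tac1 (1.28 ± 0.106) formed a chain in which each overlapped its neighbor, and Crh was last with 0.583 ± 0.0468 RPKM. In non-defeated TRAP, Npy had 325 ± 109 RPKM (SD, n = 4) and Sst 264 ± 48.7, which did not differ beyond their spread. Cort (84.5 ± 24.7) and Cck (74.8 ± 5.71) also overlapped, and Tac1 followed with 17.7 ± 3.30 RPKM. Nos1 (6.60 ± 0.782) and Penk (4.31 ± 1.88) overlapped as well. Crh (1.62 ± 0.307), Pdyn (0.760 ± 0.243) and Vip (0.355 ± 0.125) stood apart from each other at the low end. These lengths join all exons of a gene, which lowers the RPKM of genes with rarely used exons.

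Markers of other interneuron classes did not move as a block with Sst. Of 7 markers listed for somatostatin interneurons besides Sst itself, 6 were tested. In non-defeated TRAP against input, Crhbp was higher by a log2 fold change of 4.08 (SE 0.29, adjusted p = 5.86e-08) and Grin3a and Pdyn were lower, while Elfn1 and Chrna2 did not pass. The summed level of this list was between 64.9 and 71.4 CPM in input and between 277 and 355 in non-defeated TRAP, and Crhbp carried most of it. Of 9 markers of VIP, CCK and neurogliaform interneurons, 6 were lower and 2 higher (Sncg and Crh), and the sum was between 195 and 198 CPM in input and between 81.8 and 107 in non-defeated TRAP. The defining marker Htr3a was lower by a log2 fold change of -1.10 (SE 0.22, adjusted p = 8.43e-04) but was still at 2.59 CPM in TRAP.

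Genes that act on the peptides or the gas followed their own patterns. Of 13 genes for peptide processing and dense-core vesicles, 7 were higher in non-defeated TRAP and 6 lower, with a median log2 fold change of 0.55. The higher ones with the smallest p were Scg2 (1.04), Pam (1.53), Chga (1.30) and Pcsk1n (1.30). Pam encodes the enzyme that amidates peptides such as substance P and cholecystokinin, and Scg2 and Chga are granins of the vesicle core. The lower ones with the smallest p were Cadps2 (-1.92), Cpe (-0.59), Scg3 (-0.45) and Pcsk2 (-0.85), of which Pcsk2 and Cpe cut and trim the precursors.

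Of 18 receptors for the peptides, 10 were lower in TRAP and 2 were higher, and the median log2 fold change was -1.17. The lower ones with the smallest p were Sstr4 (-1.91), Npy1r (-1.74), Sstr3 (-1.38) and Npy2r (-1.47), which bind somatostatin and neuropeptide Y. All 5 somatostatin receptors were lower. The 2 higher genes were Oprd1 (2.10, SE 0.23, adjusted p = 2.95e-06), the delta opioid receptor for enkephalins, and Cckbr (1.71, SE 0.21, adjusted p = 8.84e-06), a receptor for cholecystokinin. Penk and Cck, the precursors of the ligands of these receptors, were themselves lower in the same libraries. Of 10 other neuropeptide genes, 4 were higher (Pthlh 4.20, Crhbp 4.08, Pnoc 2.07 and Cartpt 2.02) and 4 were lower (Grp -1.97, Nts -2.69, Tac2 -2.19 and Adcyap1 -1.77). Crhbp, which encodes a protein that binds corticotropin-releasing hormone, stood at 277 ± 44.0 CPM (SD, n = 4) in TRAP against 16.4 ± 3.37 (SD, n = 3) in input.

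Around Nos1, 4 of 12 genes were higher in TRAP and 3 were lower. Gucy1a1 (1.17), a subunit of the guanylate cyclase that senses nitric oxide, Pde5a (2.51), which breaks down the cGMP it makes, Nos3 (0.91) and Prkg2 (0.91) were higher. Dynll1 (-1.08), Gucy1a2 (-0.90) and Prkg1 (-1.01) were lower. Nos1ap, Nosip and Dlg4, which encode partners of the enzyme, did not pass the test, with log2 fold changes of -0.18, 0.17 and 0.10.

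**Figure D3:**
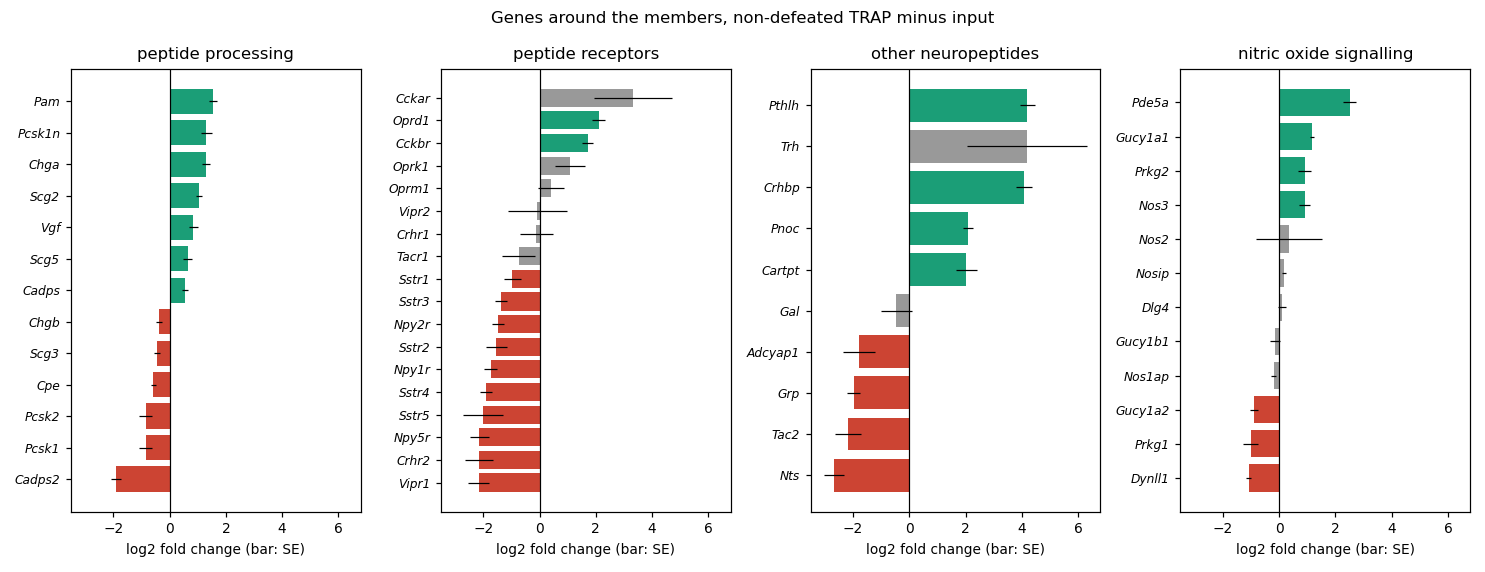
Log2 fold change (bars, with SE as whiskers), non-defeated TRAP minus input, of the genes in 4 lists, in green for higher, red for lower and gray for no call at an adjusted p of 0.05. Most receptors point to the left, with 10 of 18 lower, while peptide processing splits into 7 higher and 6 lower genes.

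Between the defeated groups and the non-defeated group, no member passed an adjusted p of 0.05. The 4 non-defeated libraries serve both comparisons, and the values are given side by side. In resilient against non-defeated mice, none of the 10 genes was called by edgeR or by DESeq2, and none had an unadjusted p under 0.05 in edgeR. Over all genes 0% were called and 4.38% had an unadjusted p under 0.05. The log2 fold changes lay between -0.09 for Cck and 0.24 for Cort. The 95% intervals were narrow for Cck (-0.29 to 0.11) and Nos1 (-0.24 to 0.24) and wide for Cort (-0.40 to 0.88) and Penk (-0.57 to 0.86).

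In susceptible against non-defeated mice all 10 genes had a positive log2 fold change, of which those of Vip, Penk and Pdyn turned negative when some libraries were left out. None was called by edgeR or DESeq2, where 0.0376% of all genes were called by edgeR. At an unadjusted p under 0.05, 3 genes were higher, Sst, Npy and Cck, against 6.61% of all genes. The median was 0.33 over the 10 genes and 0.01 over all genes tested. In susceptible against resilient mice all 10 values were again positive, with the same 3 genes turning negative when some libraries were left out, and none was called by edgeR or DESeq2, where edgeR called 1.89% of all genes. Cck alone had an unadjusted p under 0.05, against 10.8% of all genes that were higher at that threshold. The median was 0.34 over the 10 genes and 0.0028 over all genes.

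Sst averaged 190 ± 35.1 CPM across the non-defeated libraries (SD, n = 4). Resilient libraries averaged 194 ± 82.5 CPM (SD, n = 4), and susceptible ones 304 ± 135 CPM (SD, n = 3). The resilient libraries held 317, 155, 138 and 168 CPM, and the susceptible libraries 365, 398 and 149 CPM, beside 165 to 242 CPM in non-defeated libraries. Susceptible 2 and 4 were above every other library, whereas susceptible 10 lay below all 4 non-defeated libraries. The log2 fold change from non-defeated mice was 0.68 (SE 0.31, 95% interval 0.02 to 1.33, p = 0.0441 and adjusted p = 0.365 in edgeR), and the exact permutation test gave p = 0.257. Against resilient mice it was 0.65 (SE 0.31, adjusted p = 0.246). Without susceptible 10 the difference from resilient mice was 0.97 and passed the threshold (adjusted p = 0.0474 in edgeR), so 1 library decided this call. Over all genes, edgeR called 1058 of 21687 in that setting, against 403 of 21298 with all libraries.

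Npy had 339, 184, 143 and 167 CPM in resilient and 339, 335 and 196 CPM in susceptible libraries. Here too susceptible 10 was the lowest of its group, and it lay inside the non-defeated range of 130 to 251 CPM. Npy had a log2 fold change of 0.65 against non-defeated mice (SE 0.30, adjusted p = 0.364 in edgeR) and 0.48 against resilient mice (adjusted p = 0.384). Cort had 112, 61.9, 37.1 and 59.2 CPM in resilient and 114, 86.6 and 61.4 CPM in susceptible libraries. Its log2 fold changes were 0.61 (95% interval -0.07 to 1.30, adjusted p = 0.416 in edgeR) and 0.37 (adjusted p = 0.552). The groups overlapped for Sst, Npy and Cort in all comparisons of TRAP libraries.

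Tac1 had 101, 54.6, 34.4 and 54.7 CPM in resilient and 91.2, 99.6 and 55.6 CPM in susceptible libraries. The log2 fold change of Tac1 in susceptible mice was 0.45 against non-defeated and 0.43 against resilient mice (adjusted p = 0.497 and 0.411 in edgeR). Crh had 3.53, 1.90, 1.04 and 2.27 CPM in resilient and 3.55, 3.14 and 1.87 CPM in susceptible libraries. Resilient 3 thus equaled the highest susceptible library, and resilient 7 was the lowest of all TRAP libraries for both genes. The log2 fold change of Crh was 0.41 against non-defeated and 0.38 against resilient mice (adjusted p = 0.591 and 0.539 in edgeR).

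Cck was the gene with the clearest order of groups, although the differences were small. The resilient libraries held 103, 84.0, 99.2 and 80.8 CPM and the susceptible libraries 126, 108 and 107 CPM, so that all 3 susceptible libraries were above all 8 other TRAP libraries. Of all genes tested 2% had this order. Cck differed by a log2 fold change of 0.22 against non-defeated mice (SE 0.10, adjusted p = 0.372 in edgeR). Against resilient mice it was 0.31 (SE 0.10, 95% interval 0.09 to 0.53, adjusted p = 0.112 in edgeR). The exact permutation test gave p = 0.0571 in both. An offset for gene length and GC content left 0.14 and 0.27 (adjusted p = 0.548 and 0.138 in edgeR).

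Vip, Penk, Pdyn and Nos1 showed no order. Vip stayed between 0.812 and 1.45 CPM in resilient and between 0.940 and 1.53 CPM in susceptible libraries. Penk ranged from 4.55 to 9.38 CPM and from 4.36 to 12.3 CPM, and Pdyn from 1.68 to 3.11 CPM and from 1.52 to 3.15 CPM. For each of Vip, Penk and Pdyn the groups overlapped throughout, and the adjusted p in edgeR was at least 0.803 in both comparisons of the susceptible group. Nos1 had 64.1 to 88.3 CPM in resilient libraries, and 81.8, 74.8 and 79.7 CPM in susceptible libraries. Its log2 fold change was 0.10 in both comparisons of the susceptible group, with 95% intervals of -0.16 to 0.35 and adjusted p = 0.744 against non-defeated and 0.690 against resilient mice in edgeR.

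The susceptible libraries also differed in blood. The summed level of 4 blood markers, mostly hemoglobin genes, was between 742 and 1003 CPM in susceptible, 98.0 and 201 in non-defeated, and 109 and 500 in resilient libraries. Of these markers, 2 were called higher against non-defeated and 3 against resilient mice. The sum of 3 choroid plexus markers was between 411 and 677 CPM in susceptible and between 185 and 293 in non-defeated libraries. It was between 154 and 424 CPM in resilient libraries, which overlapped the susceptible range, and 0 of the 3 markers was called. The part of either in the values of the 10 genes was not tested. None of the 13 processing genes, 18 receptors, 10 other neuropeptides or 12 genes of nitric oxide signaling was called in any comparison of TRAP groups by edgeR. At an unadjusted p under 0.05 there were 1, 1, 0 and 3 of them in resilient against non-defeated mice, 2, 0, 2 and 1 in susceptible against non-defeated mice, and 0, 1, 2 and 2 in susceptible against resilient mice.

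**Figure D4:**
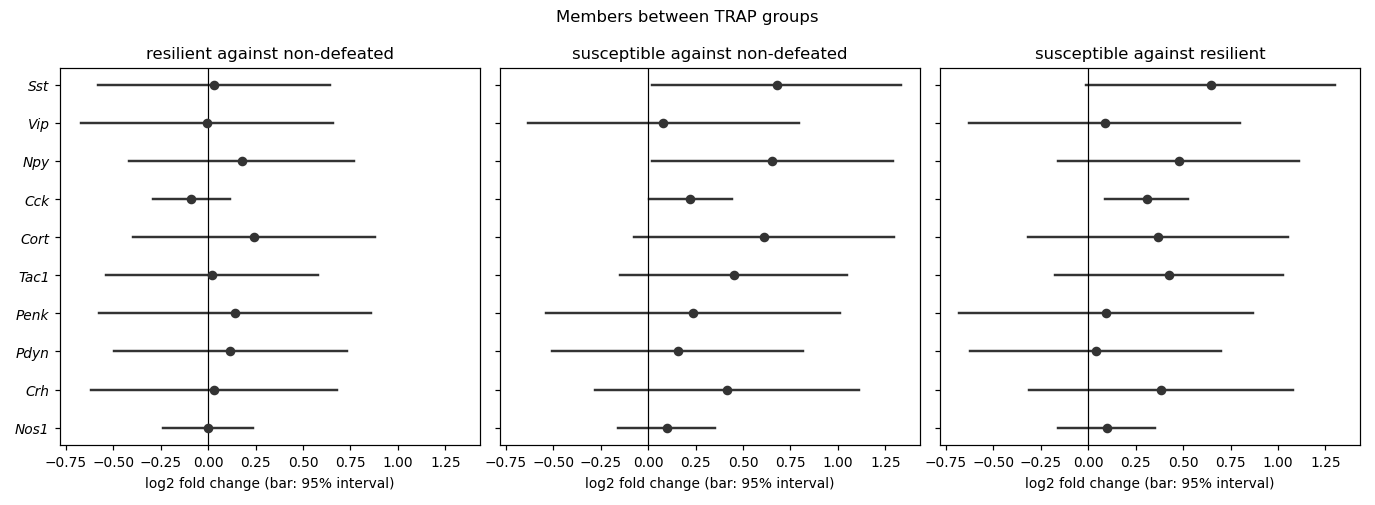
Log2 fold change (points) with 95% interval (bars) of the 10 genes in resilient against non-defeated, susceptible against non-defeated and susceptible against resilient mice. The susceptible panels lie to the right of 0 for all 10 genes with all libraries in the model (Vip, Penk and Pdyn turned when some were left out), but no gene passed an adjusted p of 0.05, and only Sst, Npy and Cck in the middle panel and Cck in the right panel have intervals that leave out 0.

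The spread over the TRAP libraries was wide for 8 of the genes and narrow for Cck and Nos1. Over the 11 TRAP libraries the highest library was 3.40 times the lowest for Crh, 3.08 for Cort, 2.93 for Tac1, 2.88 for Sst and 2.82 for Penk. It was 2.61 for Npy, 2.57 for Vip, 2.08 for Pdyn, 1.56 for Cck and 1.38 for Nos1. The median over 12202 genes with a mean of at least 5 CPM was 1.55, and 3.48% of them had a larger ratio than Sst, 48.1% than Cck and 76.4% than Nos1. The biological coefficient of variation, the replicate spread estimated by edgeR, was between 26.0% and 33.1% for 8 of the genes, 10.5% for Cck and 11.9% for Nos1, against a median of 17.7%. Vip, Pdyn and Crh had between 45 and 275 counts a TRAP library, against at least 322 counts for every other gene.

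The spread was shared by Sst, Npy, Cort, Tac1 and Crh. Susceptible 2, resilient 3 and susceptible 4 were above all other TRAP libraries for each of these 5 genes. Resilient 7 was the lowest for Sst, Cort, Tac1 and Crh and the third lowest for Npy. The libraries that were high together thus came from both defeated groups. Sst left a gap between 7 libraries at 138 to 180 CPM and 4 libraries at 242 to 398 CPM, the latter being samples 1, 2, 3 and 4. With a term for sample numbers 1 to 6 in the model, the log2 fold change of susceptible against non-defeated mice was 0.47 for Sst and 0.54 for Npy (adjusted p = 0.466 and 0.239 in edgeR). That term joins samples 1 to 4 with resilient 5 and non-defeated 6, which held 155 and 174 CPM of Sst. It therefore does not follow the gap of Sst.

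Among all 45 pairs of the 10 genes, 12 had a Pearson correlation of log2 CPM with an adjusted permutation p under 0.05 (100000 permutations of 11 libraries), and 11 of these were positive. Because Sst fell into separate clusters, no pooled coefficient is given for its 4 pairs among them. Within the 7 libraries below its gap, Sst correlated with Crh (r = 0.76), Tac1 (0.65) and Cort (0.31) but not with Npy (-0.02), as a description. The 6 pairs among Npy, Cort, Tac1 and Crh all passed. Npy left a gap as well, with no library between 251 CPM in non-defeated 1 and 335 CPM in susceptible 4. The coefficients of its pairs are pooled over that gap. Tac1 and Crh had r = 0.963 (rho = 0.918, permutation p = 3e-05 and 0.00025, adjusted p = 0.00045 and 0.00225). Npy and Cort had r = 0.951 (rho = 0.955, permutation p = 4e-05 and 3e-05, adjusted p = 0.00045 and 0.00135). Over the 6 pairs r was between 0.822 and 0.963 and rho between 0.882 and 0.955.

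The coefficients of the 6 pairs were also taken in other ways. Without the 2 libraries farthest from the median of the first gene, r was between 0.695 and 0.962 for them. This form leaves out too few libraries to remove susceptible 2, resilient 3 and susceptible 4 together. It therefore cannot show whether the pairs correlate without these high libraries. With each group centered on its mean, r was between 0.813 and 0.958, with an adjusted permutation p of 0.031. Within the 7 libraries under 150 CPM of thalamus markers it was between 0.846 and 0.969, and none of the 45 pairs passed an adjusted permutation p of 0.05 with so few libraries. A form meant to take out the trend on gene length and GC content overcorrected for it, so its coefficients are not given. Outside this group, Pdyn and Nos1 correlated (r = 0.771, rho = 0.664, permutation p = 0.00987 and 0.0302, adjusted p = 0.0404 and 0.0906), and without the 2 farthest libraries r was 0.871. Because of that overcorrection, whether r of Pdyn and Nos1 depends on gene length and GC content is not known. Vip and Penk were opposed (r = -0.708, rho = -0.727, permutation p = 0.0128 and 0.0144, adjusted p = 0.0480 and 0.0588), with r = -0.724 without the 2 farthest libraries.

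**Figure D5:**
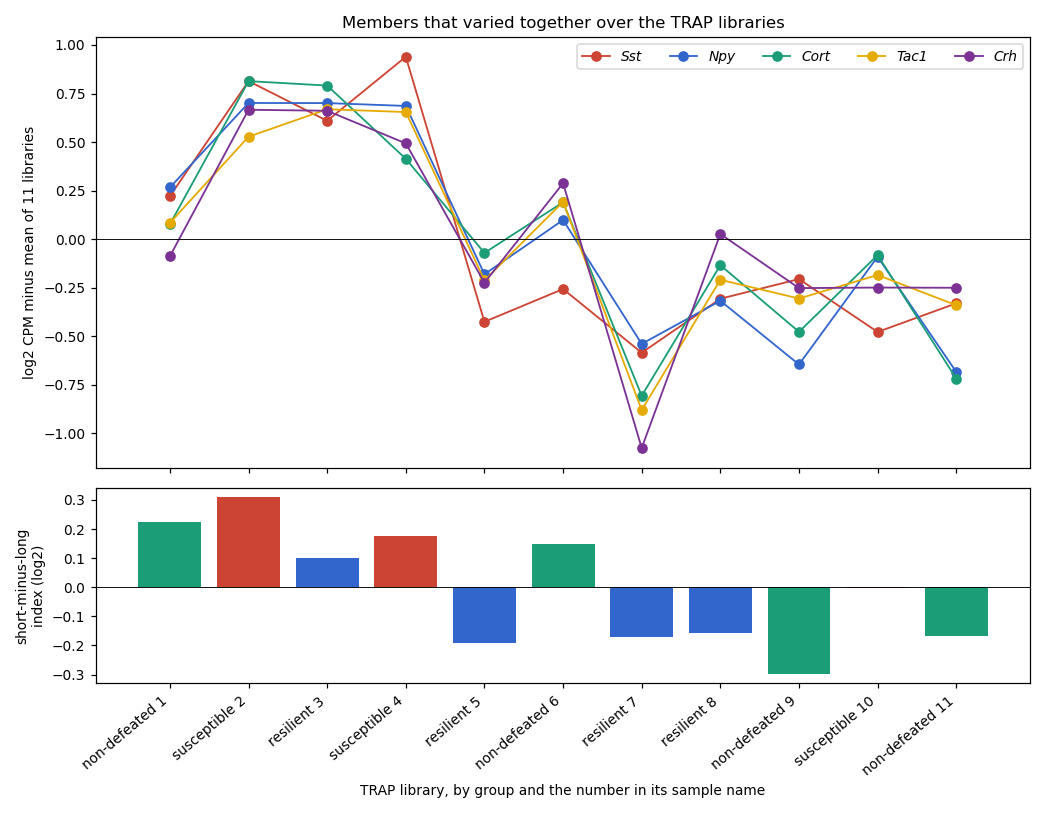
Upper panel, log2 CPM of Sst, Npy, Cort, Tac1 and Crh in each TRAP library minus the mean of the 11 libraries. Lower panel, the short-minus-long index (log2) of the same libraries, in green for non-defeated, blue for resilient and red for susceptible, which was -0.30 to 0.31. All 5 genes peak in susceptible 2, resilient 3 and susceptible 4 and dip in resilient 7.

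Measures of the libraries moved with these genes. Over 40 relations tested between the 10 genes and 4 library measures, the short-minus-long index correlated with Npy (r = 0.887, rho = 0.845, permutation p = 0.00058 and 0.00179, adjusted p = 0.0128 and 0.0316). Without the 2 farthest libraries r was 0.884. The index also correlated with Cck (r = 0.831, rho = 0.773, permutation p = 0.00121 and 0.00782, adjusted p = 0.0128 and 0.0327), Cort (r = 0.801, rho = 0.782) and Tac1 (r = 0.780, rho = 0.791). Npy, Cort and Sst have short exon sequences (566, 677 and 721 bases), whereas that of Tac1 spans 3399 bases. With each group centered on its mean none of these 4 relations with the index passed (adjusted permutation p = 0.0554 for Npy and Cort and 0.0560 for Cck and Tac1). The index was 0.31 in susceptible 2, 0.18 in susceptible 4 and 0.10 in resilient 3, and it was also 0.23 in non-defeated 1 and 0.15 in non-defeated 6, which were not among the high libraries for all 5 genes.

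The thalamus sum moved the other way. The 3 TRAP libraries with the highest sums, resilient 7, non-defeated 9 and non-defeated 11, had the lowest 3 values of Npy, Cort, Tac1 and Crh. Since these sums fall into separate clusters, no pooled coefficient is given, and within the 7 libraries under 150 CPM r was between -0.20 and -0.40 for the 4 genes. The sum of 8 excitatory markers correlated with Pdyn (r = 0.829, rho = 0.864, permutation p = 0.00128 and 0.00107, adjusted p = 0.0128 and 0.0316) and Nos1 (r = 0.765, rho = 0.773, permutation p = 0.00641 and 0.00817, adjusted p = 0.0285 and 0.0327), with r = 0.887 and 0.804 without the 2 farthest libraries. With groups centered the adjusted permutation p was 0.0460 for Pdyn and 0.0554 for Nos1. Granule cells, an excitatory type, make Pdyn. Log2 CPM of Pvalb correlated with none of the 10 genes at an adjusted permutation p under 0.05. The part of these library measures in the spread of the 10 genes was not tested beyond the values given.

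The genes whose levels followed each of the 10 most closely were taken from 12202 genes by the correlation of log2 CPM over the 11 TRAP libraries, each group centered on its mean. They are a description with no test. Tac1 was followed most closely by Crhbp (r = 0.98) and Ddit4l (0.97). Crh was followed by Gpr83 (0.98) and Cadm1 (0.98), Npy by Arl3 (0.99), and Cort by Dlx1as (0.97) and Ly6h (0.97). For Sst they were Cdr2l (0.98) and Mon1b (0.98), for Cck Gm5883 (0.96) and Gm13573 (0.95), and for Penk Nfkbia (0.95) and AU041133 (0.94). For Vip they were Plch2 (0.91) and Plxna2 (0.91), for Pdyn Atm (0.95) and Kcng2 (0.94), and for Nos1 Chrd (0.96) and Nav2 (0.94). Gpr83 encodes a receptor for a neuropeptide and Dlx1as is antisense to an interneuron transcription factor gene. In libraries without strand, reads in any stretch that an antisense pair shares cannot be told apart.

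The promoters of the genes that varied together are shown because the cAMP response element (CRE), the site bound by the factor CREB, was first described in the somatostatin gene. RefSeq windows of 300 bases on GRCm38.p6, from 250 bases before the annotated start to 50 bases after it, were matched for 8 of the 10 genes, not for Penk and Crh. The full element TGACGTCA was searched together with TGACG, its first part, on both strands (CGTCA in the printed strand), and every match is in capitals. The windows are chr16:23890795-23891094 (minus strand) for Sst, chr4:149126714-149127013 (minus strand) for Cort, chr6:7554811-7555110 (plus strand) for Tac1 and chr6:49822460-49822759 (plus strand) for Npy.
Sst: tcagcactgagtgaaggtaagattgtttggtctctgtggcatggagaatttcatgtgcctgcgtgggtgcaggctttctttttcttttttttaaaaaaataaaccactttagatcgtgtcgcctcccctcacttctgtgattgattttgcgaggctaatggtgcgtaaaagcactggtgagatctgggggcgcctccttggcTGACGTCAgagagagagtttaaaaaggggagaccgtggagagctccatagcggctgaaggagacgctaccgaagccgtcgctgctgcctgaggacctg
Cort: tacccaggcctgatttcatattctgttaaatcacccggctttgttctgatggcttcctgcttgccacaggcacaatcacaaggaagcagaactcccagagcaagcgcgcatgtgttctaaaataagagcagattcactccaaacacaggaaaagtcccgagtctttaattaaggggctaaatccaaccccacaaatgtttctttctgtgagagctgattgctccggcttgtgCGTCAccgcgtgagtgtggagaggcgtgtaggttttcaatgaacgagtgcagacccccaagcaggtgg
Tac1: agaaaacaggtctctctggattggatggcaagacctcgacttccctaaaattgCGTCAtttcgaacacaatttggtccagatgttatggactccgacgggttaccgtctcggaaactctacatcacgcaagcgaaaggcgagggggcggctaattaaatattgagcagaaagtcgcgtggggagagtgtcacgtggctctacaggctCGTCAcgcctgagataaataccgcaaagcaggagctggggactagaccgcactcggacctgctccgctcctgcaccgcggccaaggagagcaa
Npy: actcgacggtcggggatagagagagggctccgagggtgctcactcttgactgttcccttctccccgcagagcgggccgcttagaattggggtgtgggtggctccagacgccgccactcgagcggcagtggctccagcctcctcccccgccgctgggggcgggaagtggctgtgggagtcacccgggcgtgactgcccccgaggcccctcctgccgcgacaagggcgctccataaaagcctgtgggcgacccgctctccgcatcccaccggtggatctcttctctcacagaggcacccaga
The window of Sst holds the full element at position -48 from the start, and its pair of TGACG matches are the overlapping strands of that element. Tac1 holds 2 matches of TGACG and Cort 1, while Npy holds none. Of the other genes Vip, Cck and Nos1 hold 1 TGACG each and Pdyn none. Over all 32544 RefSeq windows of this length, 1.8% hold TGACGTCA and 20.9% hold TGACG. A match is a stretch of letters and not a measured binding site, and no match says only that these letters are not in the window.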

How the data were processed

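RNA was measured by sequencing in 11 TRAP samples (4 non-defeated, 4 resilient and 3 susceptible mice) and 3 input samples of non-defeated mice. A kit for full-length cDNA that does not mark strand was used on 1 ng of RNA. The authors deposited raw counts per gene, after trimming in fastp and alignment by STAR to mm10. The submitters' processing notes name STAR 2.5.3a and HTSeq, the study's methods name a later STAR version, and the annotation and strand setting of the counting are not given in the sources used here. Totals were between 64110214 and 94726962 counts a library, and counting error is part of the spread that every test uses. Groups were taken from the labels, which name the molecule of the input samples as translating RNA, whereas the design text calls them total RNA before TRAP. That samples of a group are separate mice follows from the design text, which gives 1 mouse a TRAP sample. The p-values measure the spread between these samples.

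Symbols, exon lengths and positions came from release M21 of GENCODE, which named 37607 of the 39017 genes. Counts were fitted in R 4.3.3 with edgeR 4.0.16, in 1 quasi-likelihood model of all 14 libraries with TMM normalization and the default filter on low counts (21298 genes), with 2-sided tests and Benjamini-Hochberg adjustment over all genes. A gene was called at an adjusted p under 0.05. CPM are counts over the TMM-scaled total, and log2 CPM carry a prior count of 2. Single genes were also compared by exact permutation over samples, and pairs of genes by 100000 permutations of the 11 TRAP libraries. Steps were tested on simulated data. No 2 libraries of a group agreed within counting error (chi-square per degree of freedom at least 13.2 over 18 pairs).

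All 10 members were reported. From lists of peptide processing, receptors, other neuropeptides and nitric oxide signaling, at most 4 called genes with the smallest p were named per comparison (per direction for TRAP against input), and for each member the 2 genes of most like pattern. Some genes that met these rules are not reported here. The members and lists were chosen with earlier results of these data known. The alternatives were RLE size factors, total counts only, DESeq2 1.42.0, other filters, fewer libraries, a GC offset, a term for sample numbers 1 to 6 and leaving out each library. An offset for gene length and GC content and leaving out the libraries above 150 CPM of thalamus markers were added after the data were seen.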

Additional observations from a re-analysis of the deposited data

Results flagged for a closer look

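In groups of 4 libraries, the highest and lowest library of each gene were compared with the rest by Dixon's criterion, in 20 groups in all, of which chance flags about 1 in 20. Sst in resilient 3, at 317 CPM, stood apart from 138 to 168 CPM in the other resilient libraries. The same library was also the highest of its group for Npy, Cort, Tac1 and Crh, which did not pass the criterion. Penk in non-defeated 1, at 11.6 CPM, stood apart from 5.16 to 6.04 CPM in the other non-defeated libraries. Without non-defeated 1, as without each of the other 3 non-defeated libraries, the lower level of Penk in non-defeated TRAP than in input kept an adjusted p under 0.05 in edgeR.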

How the results depend on the processing

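The count of the 10 genes called was 9 in non-defeated TRAP against input and between 8 and 10 under every alternative. It was 0 in the 3 comparisons of TRAP groups under every alternative but 1, since leaving out each library in turn gave 0 to 1 in susceptible against resilient mice, with Sst called without susceptible 10. Among the 45 pairs, 12 passed an adjusted permutation p of 0.05. The number was between 10 and 12 with each library left out and 9 with groups centered. In the 7 libraries low in thalamus markers it was 0. The form that overcorrected for gene length and GC content is not counted here. Against input, Penk and Nos1 changed their call under the alternatives given with them, and the other 8 genes did not under any alternative.

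Some values changed sign, and none of these was called. For Nos1, the log2 fold change of the resilient from the non-defeated group was 2.7e-05 in the main model, -0.0041 with RLE size factors, -0.0022 with total counts only, -0.045 with the GC offset, -0.0018 in DESeq2, -0.0025 with TRAP libraries only and -0.017 with the length and GC offset. That of Vip was 0.0019 with no filter, 0.055 with the GC offset, 0.00053 with the 2 groups only, 0.024 with the length and GC offset and 0.24 without the libraries high in thalamus markers. Sst had -0.013 with the GC offset and -0.012 with the term for sample numbers, Crh had -0.0051 with that term and -8.1e-05 with the length and GC offset, and Tac1 had -0.018 with the term. Without the libraries high in thalamus markers, Npy (-0.053), Tac1 (-0.0034) and Penk (-0.16) reversed in that comparison, Penk (-0.43) in susceptible against non-defeated mice, and Penk (-0.27) and Pdyn (-0.27) in susceptible against resilient mice.

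With each library left out, the values in resilient against non-defeated mice ranged from -0.12 to 0.44 for Cort, -0.30 to 0.26 for Crh, -0.099 to 0.061 for Nos1, -0.16 to 0.36 for Npy, -0.041 to 0.34 for Pdyn, -0.31 to 0.17 for Sst, -0.33 to 0.22 for Tac1 and -0.22 to 0.17 for Vip. In susceptible against non-defeated mice it ranged from -0.072 to 0.41 for Pdyn, -0.17 to 0.59 for Penk and -0.13 to 0.26 for Vip, and in susceptible against resilient mice from -0.19 to 0.29 for Pdyn, -0.31 to 0.40 for Penk and -0.063 to 0.27 for Vip. The cause of these changes was not tested. No paired analysis was possible because the groups share no sample numbers. A group left with 2 libraries has its spread estimated with the other groups.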

Other observations

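Whether Nos1 varies with the peptides apart from the trend on gene length and GC content is not known. In log2 CPM, its correlation over the 11 TRAP libraries was r = -0.25 with Npy, -0.09 with Cort, -0.08 with Tac1 and 0.05 with Crh. With Pdyn the correlation of Nos1 was 0.77. The form meant to take out the trend overcorrected for it. It therefore cannot show whether these correlations depend on gene length or GC content. The r values are descriptions, and Nos1 has 11151 bases of exon. In log2 CPM the correlations of Tac1, whose exons span 3399 bases, with Npy, Cort and Crh were 0.92, 0.94 and 0.96.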
